A study of Mus musculus with 12 samples.

Results

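Cells labelled as cardiac fibroblasts that had lost Smad7 were compared with their controls in the absence of TGF-β1. The comparison used 6 of the 12 libraries of the series, 3 control and 3 Smad7-KO, chosen by their labels, and it covered all 35275 genes of the count table, of which 15150 passed a filter on low counts and were tested. All cells came from hearts of 12-week-old C57BL/6 mice with a floxed Smad7 gene, were expanded to passage 2 and were infected with adenovirus at 100 MOI for 48 hours. Smad7-KO cells received an adenovirus that expresses Cre recombinase, which cuts out the floxed sequence. Control cells, titled wild type in the labels although they carry the floxed allele too, received a control adenovirus that the labels call GFP and the study's methods call empty. Expression of Cre and loss of Smad7 therefore cannot be told apart here, since no library holds Cre without the floxed allele. The study asked how Smad7 acts in the fibroblasts of the infarcted heart. Its other 6 libraries hold the same cells stimulated with TGF-β1 at 10 ng/ml, and are used below as a second measurement of the same deletion that shares no library with the first, although both use a spread estimated over all 12. The labels do not say whether the 3 libraries of a group came from separate mice or cultures. The p values therefore measure the spread between libraries, which may be technical. That spread was estimated jointly over the 4 groups and was widest in the unstimulated controls. Relative to the spread of the controls alone the p values can be too small.

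Smad7 is an inhibitory Smad. TGF-β and bone morphogenetic protein (BMP) ligands bind pairs of receptor kinases that phosphorylate Smad2 and Smad3 or Smad1, Smad5 and Smad9, and these enter the nucleus with Smad4. Smad6 and Smad7 are transcribed in response to the same signals, bind the receptors and shut them off, and in cardiac fibroblasts the pathway is known for driving collagen synthesis and the conversion to contractile myofibroblasts. ErbB receptors, which bind ligands of the epidermal growth factor family, form another receptor system that the study examined in these cells.

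Total counts were 19056916 to 22754402 in the control libraries and 19972259 to 23121796 in the Smad7-KO libraries. The control libraries differed among themselves more than the Smad7-KO libraries did. Their biological coefficient of variation, the typical relative spread of a gene between libraries, was 0.333 against 0.0528, and 2 of them carried a trend on gene length. Relative to the mean of all 12 libraries, the 5050 shortest genes stood above the 5050 longest by 1.13 on the log2 scale in control library 2 and by 0.38 in control library 1, whereas the difference was -0.26 in control library 3 and -0.34 to -0.24 in the Smad7-KO libraries. The median log2 fold change, Smad7-KO over control, was -0.39 in the shortest genes, -0.014 in those of middle length and 0.29 in the longest, in sets of 5050 genes each. After each library's trend on gene length was removed the medians were -0.022, -0.0040 and 0.0017. The coefficient of variation of the control libraries was then 0.252, still above the 0.0485 of the Smad7-KO libraries. Log2 fold changes given in pairs are accordingly first without and then with removal of the length trend, called uncorrected and length-corrected, and values after ± are standard errors (SE). Those against control library 3 alone are uncorrected. A gene is said to have risen or fallen only when edgeR gave a Benjamini-Hochberg adjusted p of 0.05 or less in both fits with the same sign, and these genes are named as called. Adjusted p values are printed in the same order, and values of libraries in the order 1, 2 and 3. Levels are in CPM, counts scaled to a common library size by edgeR's factors.

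**Figure D1:**
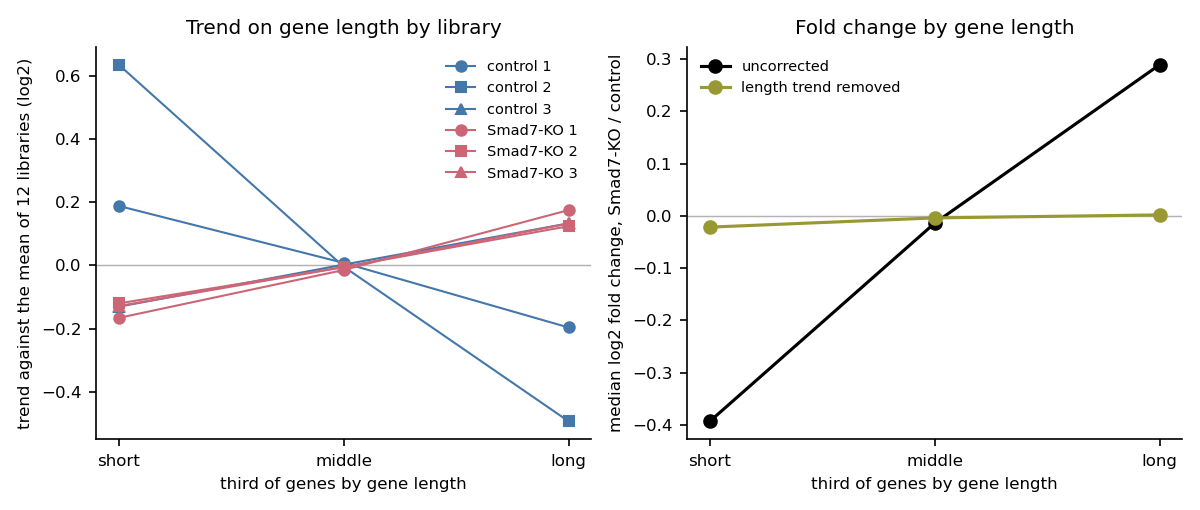
Left, the mean trend of each unstimulated library on gene length (log2, against the mean of the 12 libraries) in the tested genes split by length into short, middle and long, with control libraries in blue and Smad7-KO libraries in red. Right, the median log2 fold change, Smad7-KO over control, in the same sets, which ran from -0.39 to 0.29 uncorrected and from -0.022 to 0.0017 after removal of the trend.

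Under this rule 3091 of 15150 genes were called, which is 20.4%, with 1470 higher (9.7%) and 1621 lower (10.7%) in Smad7-KO libraries. The uncorrected fit called 3907 genes (25.8%) and the length-corrected fit 4458 (29.4%), and 0 genes were called in opposite directions. Of the 3091 genes, 2939 were annotated as protein-coding. The libraries of both groups did not overlap in CPM in 6258 (41.3%) of all genes tested, and both with and without the length trend in 4981 (32.9%), among them 2995 of the 3091 called genes. In TGF-β1-stimulated cells, where 1837 genes (12.1%) were called in both fits, with 5.25% higher and 6.88% lower, 1438 of the 3091 genes were called again in the same direction and 1 in the opposite direction. The uncorrected fit called 5.72% higher and 7.23% lower there, and groups did not overlap in 44.9% of genes in CPM and in 38.6% on both scales. Counts without TGF-β1 depended on which libraries entered the fit. Against control library 3 alone, the control library without the excess of short genes, 1701 genes were called in both fits. There the spread came from the other groups, since a lone library has none of its own. Leaving out control library 1 gave 1798 calls and control library 3 gave 4943, and leaving out Smad7-KO library 1, 2 or 3 gave 1491, 1366 and 1380. A fit of the 6 unstimulated libraries on their own, which also had fewer libraries to estimate the spread, called 628. The cause of the lower number was not tested. A total of 528 genes, 193 higher and 335 lower, kept their call in each of 23 alternative analyses. These changed the test, the normalization, the filter or the libraries. For some of the genes below, the number of these analyses that kept the call is given. Where no number is given, the call may have been lost in some of them.

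Smad7 itself (chromosome 18, 75367529 to 75395935, plus strand) was lower in every Smad7-KO library. It stood at 71.4, 74.6 and 77.2 CPM in the 3 controls and 28.6, 28.4 and 31.1 CPM in the 3 knockouts, and the groups were far apart relative to their spread. The log2 fold change was -1.34 ± 0.094 uncorrected and -1.53 ± 0.10 length-corrected (adjusted p = 9.02e-06 and 6.4e-07). Reads on Smad7 thus remained in the Smad7-KO libraries, and gene totals do not show which exons they came from. In stimulated cells, where control levels of Smad7 were higher (mean 145.7 against 74.4 CPM), the log2 fold changes of the deletion were -0.92 and -1.01.

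Of 23 ligands, latent-TGF-β-binding proteins, receptors, Smads and regulators of the TGF-β system, all tested, 12 fell and 1 rose, against backgrounds of 10.7% and 9.7%. The median log2 fold change of the list was -0.40 uncorrected and -0.45 length-corrected, beside -0.015 and -0.0096 over all genes. Smad7 itself is 1 of the 12. Of the 13 calls 5 held in all 23 analyses, those of Eng, Pmepa1, Smad6, Smad7 and Tgfb2. The number lower was 5 with edgeR on the 6 unstimulated libraries, 7 without control library 1, and 7 without Smad7-KO library 1, 2 or 3. In stimulated cells 7 fell and 1 rose. The largest fall was in the other inhibitory Smad. Smad6 (chromosome 9, 63953076 to 64022059, minus strand) was at 144, 103 and 141 CPM in the 3 controls and 31.6, 29.2 and 30.9 CPM in the 3 knockouts, with no overlap between groups. Its log2 fold change was -2.08 ± 0.14 uncorrected and -2.06 ± 0.12 length-corrected (adjusted p = 6.9e-06 and 2.02e-07). Bambi, a pseudoreceptor that blocks TGF-β family receptors, was at 7.35, 9.48 and 5.48 CPM in controls and 3.02, 2.92 and 3.90 CPM in knockouts. Its log2 fold changes were -1.17 and -1.49 (adjusted p = 0.00864 and 0.00611), and 20 of the 23 alternative analyses kept the call. Pmepa1, a TGF-β-induced membrane protein that binds and sequesters receptor-activated Smads, was at 140.4, 158 and 137 CPM in controls and 93, 91 and 101 CPM in knockouts, with no overlap, and changed by -0.61 ± 0.10 uncorrected and -0.85 ± 0.13 length-corrected (adjusted p = 0.00166 and 0.000406).

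Among the ligands, Tgfb2 was at 95, 83.5 and 105 CPM in controls and 61.4, 52.6 and 62.2 CPM in knockouts, with log2 fold changes of -0.69 and -0.92 (adjusted p = 0.00287 and 3.35e-06). Tgfb3 fell as well (-0.40 and -0.45, adjusted p = 0.0424 and 0.00449), and 6 of 23 analyses kept its call. Tgfb1 was not called (0.15 and 0.34). All 4 latent-TGF-β-binding proteins, which hold the ligands in the matrix, were lower. Their log2 fold changes were -0.50 and -0.90 for Ltbp1, -0.94 and -1.29 for Ltbp2, -0.41 and -0.69 for Ltbp3 and -0.66 and -0.94 for Ltbp4. For Ltbp2, where control library 2 lay below the Smad7-KO libraries (17.9, 7.60 and 22.1 CPM in controls and 8.18, 8.07 and 8.72 CPM in knockouts), 7 of 23 analyses kept the call.

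The receptors did not move together. Tgfbr1, the type I receptor, was at 169.9, 122 and 246 CPM in the 3 controls and 284, 279 and 275 CPM in the 3 knockouts and rose by 0.64 ± 0.21 uncorrected and 0.34 ± 0.082 length-corrected (adjusted p = 0.0445 and 0.00772). Against control library 3 alone the log2 fold change was 0.18, which was not called, and 10 of 23 analyses kept the call. Tgfbr2, the type II receptor, was at 458, 339 and 536 CPM in controls and 534, 533 and 508 CPM in knockouts, and its log2 fold changes of 0.24 and 0.013 were not called (adjusted p = 0.237 and 0.906). Endoglin (Eng), an accessory receptor, was at 343, 311 and 333 CPM in controls and 169, 162 and 173 CPM in knockouts and changed by -0.97 ± 0.082 uncorrected and -1.06 ± 0.061 length-corrected (adjusted p = 2.91e-05 and 2.02e-07). Its partner Acvrl1, a type I receptor of endothelial cells, also fell (-0.47 and -0.57). The signal-transducing Smads were not called. Smad3 was at 54, 36.3 and 66.1 CPM in controls and 58.4, 58.3 and 62.7 CPM in knockouts, and its log2 fold changes were 0.20 and -0.052. Those of Smad2 were 0.10 and 0.14 and those of Smad4 0.21 and 0.15.

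The BMP list had the lowest median of the signaling lists. Of its 23 members 9 fell (39.1% against 10.7% of all genes) and 0 rose (against 9.7%). The median log2 fold change was -0.96 uncorrected and -0.64 length-corrected, and 7 of the 9 kept their call in each of the 23 analyses. Id1 (chromosome 2, 152736251 to 152737410, plus strand), a helix-loop-helix protein that blocks differentiation factors and is a direct target of BMP-activated Smads, was at 76.6, 152 and 48.6 CPM in the 3 controls and 10.9, 11.5 and 10.7 CPM in the 3 knockouts. The control libraries differed widely among themselves, and each of them lay above every knockout. The log2 fold change was -3.07 ± 0.36 uncorrected and -2.50 ± 0.17 length-corrected (adjusted p = 0.000314 and 9.99e-07), and -2.14 against control library 3 alone. Id3 was at 214, 367 and 143 CPM in the 3 controls and 49.5, 42.5 and 46.4 CPM in the 3 knockouts and changed by -2.39 ± 0.28 uncorrected and -1.88 ± 0.12 length-corrected (adjusted p = 0.000355 and 5.14e-07). Id2 changed by -0.98 and -0.52 (adjusted p = 0.00363 and 0.000622), and Id4, at 2.51, 2.29 and 2.95 CPM in controls and 2.08, 1.59 and 1.69 CPM in knockouts, was not called.

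The ligands Bmp4 and Bmp6 fell with the Id genes. Bmp4 was at 208, 167 and 182 CPM in controls and 61.5, 44.5 and 49.5 CPM in knockouts (-1.84 and -1.64, adjusted p = 1.48e-05 and 1.44e-05), and Bmp6 was at 99.8, 53.3 and 109 CPM in controls and 45.7, 36.5 and 41.9 CPM in knockouts (-1.08 and -0.98, adjusted p = 0.00566 and 0.0139). Smad9, a BMP-activated Smad, stood at 12.1, 7.03 and 13.8 CPM in controls and 4.95, 3.43 and 4.08 CPM in knockouts, with log2 fold changes of -1.41 and -1.68 (adjusted p = 0.00276 and 1.99e-05). The secreted antagonists noggin and follistatin were lower too. Nog was at 3.32, 3.26 and 2.87 CPM in controls and 0.941, 1.33 and 0.694 CPM in knockouts (-1.66 and -1.36) and Fst at 35.2, 49 and 42.1 CPM in controls and 13.3, 16.3 and 16.1 CPM in knockouts (-1.47 and -1.32). The receptors Bmpr1a, Bmpr2 and Acvr1 and the Smads Smad1 and Smad5 were not called. In stimulated cells 8 members fell, and the log2 fold changes of Id1 were -0.99 and -0.73, of Id3 -1.04 and -0.80 and of Smad6 -1.28 and -1.24. The differences between these effects with and without TGF-β1 passed the test of the difference itself in the length-corrected fit for Id1 and Id3, and in neither fit for Smad6 (adjusted p of the interaction = 0.803 and 0.0119 for Id1, 0.98 and 0.0307 for Id3, 0.872 and 0.188 for Smad6). Endothelial markers, described below, fell in the same libraries by a median of -3.04 uncorrected and -2.94 length-corrected, and their part in the falls of the Id genes, Smad6, Bmp4, Eng and Acvrl1 was not tested. In bulk RNA, fewer cells of a type and less RNA per cell cannot be told apart.

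BMP-activated Smads are known to bind GGCGCC. This palindrome was searched in the 250 bases before the start of each gene in RefSeq (GRCm38.p6), where 9.59% of 32851 promoters hold it. Of the 17 members of the BMP list with a promoter in the table, 8 hold it, namely 2 of the 6 that fell and 6 of the 11 that did not. Id2 and Smad9 are the 2 that fell and hold it, and their promoters are shown with the match in capitals, followed by that of Cyr61, a matricellular gene described further on, with CATTCC in capitals, the reverse complement of GGAATG, the core site of TEAD factors, which 12.6% of promoters hold on either strand. Of the 12 matricellular genes with a promoter in the table, 1 holds GGAATG on either strand, namely 1 of the 2 that fell and 0 of the 10 others. In the Cyr61 promoter only CATTCC is marked, and a GGCGCC in it is left in lower case. The Id3 promoter, which holds no GGCGCC in this window, is not shown. The windows are chr12:25096093-25096342 (minus strand) for Id2, chr3:54755332-54755581 (plus strand) for Smad9 and chr3:145649986-145650235 (minus strand) for Cyr61. A match describes the letters and is not a measured binding site.
Id2: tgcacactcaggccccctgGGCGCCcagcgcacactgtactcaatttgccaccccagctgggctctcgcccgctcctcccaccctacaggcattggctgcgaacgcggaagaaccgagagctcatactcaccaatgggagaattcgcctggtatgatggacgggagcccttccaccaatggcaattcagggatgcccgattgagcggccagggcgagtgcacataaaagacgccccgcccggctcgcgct
Smad9: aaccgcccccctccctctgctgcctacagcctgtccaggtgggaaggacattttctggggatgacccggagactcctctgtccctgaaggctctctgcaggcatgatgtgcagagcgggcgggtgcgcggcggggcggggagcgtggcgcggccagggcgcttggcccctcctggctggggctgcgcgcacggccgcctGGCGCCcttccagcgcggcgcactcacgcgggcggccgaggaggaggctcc
Cyr61: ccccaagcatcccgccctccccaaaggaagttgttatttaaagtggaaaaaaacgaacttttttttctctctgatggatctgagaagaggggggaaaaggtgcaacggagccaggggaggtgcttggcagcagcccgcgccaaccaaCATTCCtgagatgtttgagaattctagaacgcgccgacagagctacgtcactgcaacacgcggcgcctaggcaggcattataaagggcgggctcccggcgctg

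Genes that TGF-β is known to induce mostly fell or were not called. Of 20 such genes 7 fell (35% against 10.7% of all genes) and 1 rose (5% against 9.7%). The median log2 fold change was -0.40 uncorrected and -0.29 length-corrected, and 3 of the 8 calls held in all 23 analyses. Ctgf (Ccn2), a matricellular protein of fibrotic tissue (chromosome 10, 24595442 to 24598683, plus strand), was at 773, 1309.6 and 720.1 CPM in the 3 controls and 311, 310.2 and 362 CPM in the 3 knockouts. All control libraries lay above all Smad7-KO libraries, with control library 2 highest, and the log2 fold change was -1.51 ± 0.20 uncorrected and -1.39 ± 0.16 length-corrected (adjusted p = 0.000767 and 6.03e-05). Tgfbi, a secreted adhesion protein, was the member that rose, from 55.4, 53.1 and 48.4 CPM to 62.3, 65.5 and 70.4 CPM (0.34 and 0.41, adjusted p = 0.0259 and 0.00119). Skil, Junb, Klf10, Has2, Il11 and Nox4 were among the 12 members not called.

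**Figure D2:**
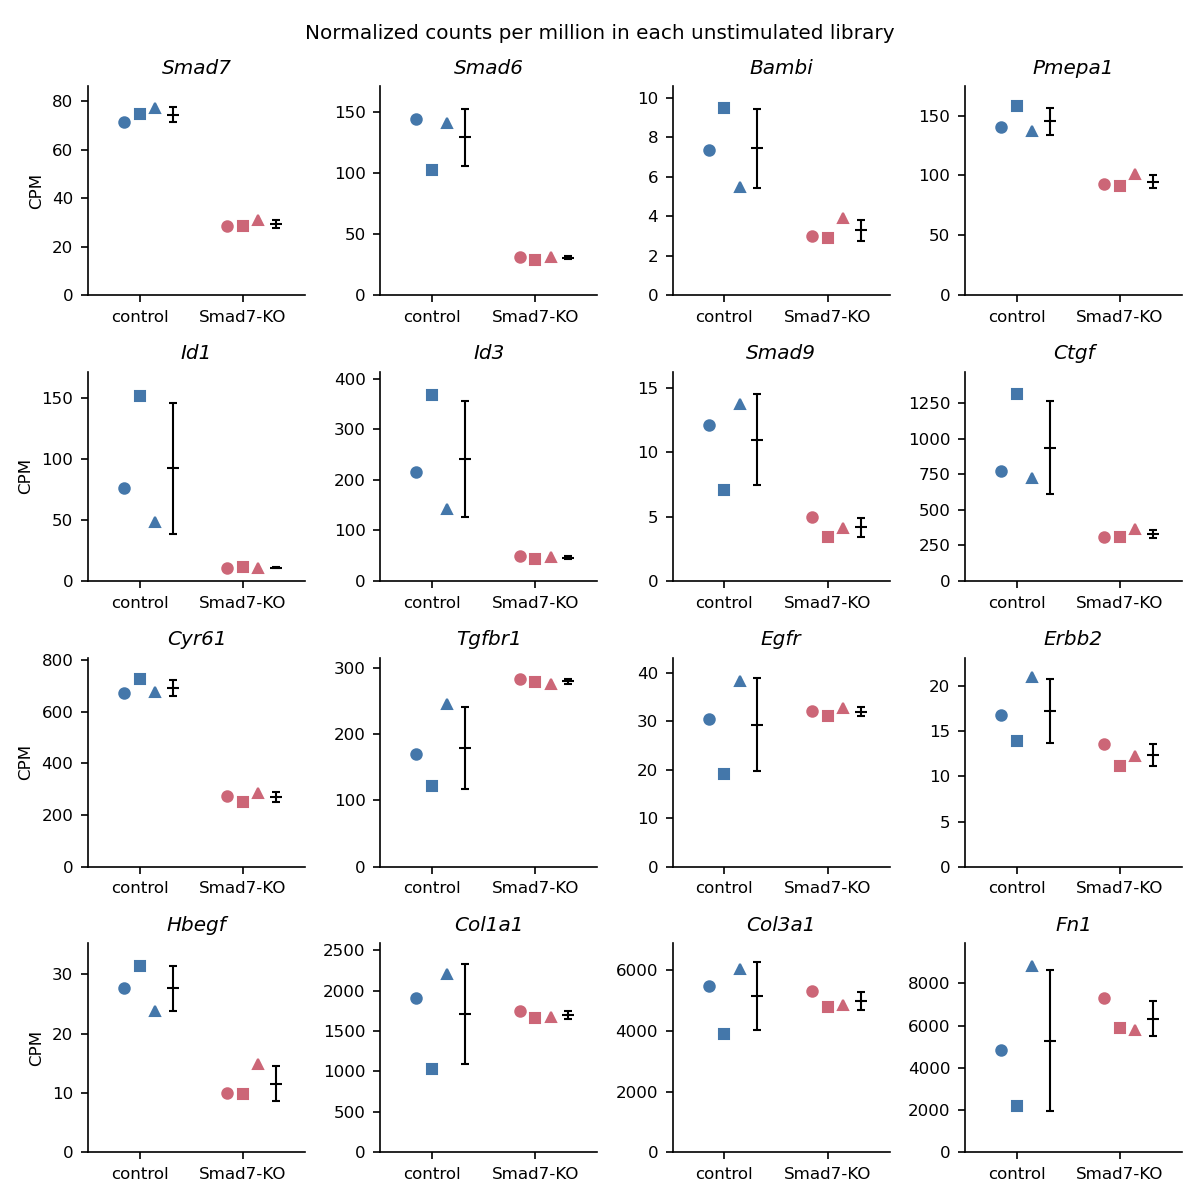
CPM of 16 genes in each unstimulated library, with control libraries 1 (circle), 2 (square) and 3 (triangle) in blue, Smad7-KO libraries in red, and the mean ± SD of the 3 libraries in black. Smad7, Smad6, Id1, Id3, Ctgf and Hbegf show no overlap between the groups, whereas the Smad7-KO libraries of Egfr, Col1a1, Col3a1 and Fn1 lie within the range of the control libraries.

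Of 20 ErbB receptors, ligands and regulators 16 were tested. Of these 4 fell (25% against 10.7% of all genes) and 1 rose (6.25% against 9.7%). The median log2 fold change was -0.12 uncorrected and -0.40 length-corrected. Erbb4, the ligands Areg and Epgn, and Nrg3 did not pass the filter on low counts. Of the 5 calls 1, that of Hbegf, held in all 23 analyses. Without Smad7-KO library 1, 2 or 3, and with edgeR on the 6 unstimulated libraries, 1 member fell and 0 rose. Erbb2 (chromosome 11, 98412470 to 98437716, plus strand), the receptor without a ligand of its own, was at 16.9, 13.9 and 21 CPM in the 3 controls and 13.6, 11.2 and 12.3 CPM in the 3 knockouts, so that the groups did not overlap. Its log2 fold change was -0.48 ± 0.15 uncorrected and -0.74 ± 0.10 length-corrected (adjusted p = 0.0415 and 0.000136), 7 of 23 analyses kept the call, and in stimulated cells it was not called (-0.41 and -0.54). Egfr was at 30.6, 19.1 and 38.3 CPM in controls and 32.2, 31.1 and 32.8 CPM in knockouts and was called only in the length-corrected fit, with log2 fold changes of 0.12 and -0.43 (adjusted p = 0.681 and 0.00301). Erbb3 was at a mean of 1.28 ± 0.704 CPM in controls and 2.92 ± 0.0497 CPM in knockouts (SD, n = 3 each) and passed, as higher, only in the uncorrected fit. Of the ligands called, Hbegf changed most, from 27.7, 31.5 and 23.9 CPM to 10.01, 9.83 and 15 CPM. It changed by -1.25 ± 0.16 uncorrected and -1.11 ± 0.14 length-corrected (adjusted p = 0.000626 and 7.38e-05), and each of the 23 analyses kept it. Ereg was at 57.3, 63.1 and 65.1 CPM in controls and 43.9, 48.2 and 47.5 CPM in knockouts (-0.41 and -0.58, adjusted p = 0.0161 and 0.000444). Tgfa (-0.51 and -0.67) and Nrg1 (-0.89 and -0.74) each passed in 1 of the 2 fits and were not called. Of the regulators, Lrig3 fell (-0.48 and -0.63) and Erbb2ip, a scaffold that binds ErbB2, rose from 126, 107 and 197 CPM to 245, 240.0 and 228 CPM (0.73 and 0.38). Against control library 3 alone the log2 fold change of Erbb2ip was 0.27, which was not called.

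Of 36 other receptor tyrosine kinases tested, 10 fell (27.8% against 10.7% of all genes) and 2 rose (5.56% against 9.7%). The median log2 fold change was -0.15 and -0.44, and 4 of the 12 calls held in all 23 analyses. Those that fell included the endothelial receptors Tie1, at 16.8, 15.7 and 16.2 CPM in controls and 0.644, 0.644 and 0.607 CPM in knockouts, and Flt1, a receptor for vascular endothelial growth factor, at 9.28, 4.80 and 12.5 CPM in controls and 3.12, 2.70 and 2.56 CPM in knockouts. They also included the fibroblast growth factor receptor Fgfr2 (-0.84 and -1.02), the hepatocyte growth factor receptor Met (-0.69 and -1.09), the Wnt receptor Ryk (-0.77 and -0.77) and 4 Eph receptors. The 2 that rose, Mertk and Csf1r, are macrophage receptors, and both are on the macrophage list below. The platelet-derived growth factor receptors Pdgfra (0.34 and -0.048) and Pdgfrb (0.091 and -0.18) were not called. Among 29 feedback and immediate early genes of the MAPK cascade, which receptor tyrosine kinases activate, 7 fell and 2 rose. These shares were 24.1% and 6.9%, against 10.7% and 9.7% of all genes, and 3 of the 9 calls held in all 23 analyses. Egr1, an immediate early transcription factor, was at 48.6, 48.9 and 45.5 CPM in controls and 13.1, 22.7 and 22.9 CPM in knockouts (-1.28 and -1.50, adjusted p = 0.000779 and 0.000142). The dual-specificity phosphatases, which dephosphorylate MAP kinases, went in both directions. Dusp1 (-0.66 and -0.51), Dusp5 (-1.04 and -0.92) and Dusp10 (-0.95 and -0.90) fell, whereas Dusp6 (0.38 and 0.43) and Dusp7 (0.75 and 0.73) rose.

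The main fibrillar collagens and fibronectin were not called. Col1a1 was at 1904, 1025 and 2210.1 CPM in the 3 controls and 1749, 1663 and 1669 CPM in the 3 knockouts, and the Smad7-KO libraries lay within the range of the controls. The log2 fold change was -0.016 ± 0.22 uncorrected and -0.33 ± 0.11 length-corrected (adjusted p = 0.959 and 0.0399). Col3a1 was at 5474, 3883 and 6037 CPM in controls and 5319.7, 4769.8 and 4859 CPM in knockouts (-0.042 and -0.35) and Col5a1 at 479, 280.3 and 599 CPM in controls and 511, 438 and 448 CPM in knockouts (0.041 and -0.43). All 3 passed only in the length-corrected fit, as lower. Fn1, fibronectin, ranged from 2187 to 8827 CPM among the control libraries and from 5817 to 7313 CPM in Smad7-KO (0.26 and -0.11, adjusted p = 0.615 and 0.713). Over the 17 genes of this list 1 rose and 2 fell, shares close to the background, while the length-corrected fit alone called 10 lower and 1 higher (median log2 fold change -0.016 uncorrected and -0.35 length-corrected). Col14a1, a fibril-associated collagen, was the member that rose, from 65.2, 38.9 and 92.4 CPM to 192, 172 and 165 CPM (1.43 ± 0.25 uncorrected and 1.09 ± 0.11 length-corrected, adjusted p = 0.00286 and 1.99e-05). Col16a1 fell from 191, 176 and 189.8 CPM to 132, 125 and 128 CPM (-0.53 and -0.84), and Col8a2, at 1.25, 1.03 and 1.43 CPM in controls and 0.297, 0.30 and 0.217 CPM in knockouts, fell at low counts. Of 22 basement membrane genes 2 rose, Nid2 (1.09 and 0.88) and Lama3 (1.51 and 1.05), and 1 fell, Col4a4 (-1.59 and -2.14). These shares, 9.09% and 4.55%, were below the 9.7% and 10.7% of all genes, and 0 of the 3 calls held in all 23 analyses. Without Smad7-KO library 1, 2 or 3, and with edgeR on the 6 unstimulated libraries, 0 rose and 1 fell. The type IV collagen chains of most basement membranes, Col4a1 and Col4a2, were not called.

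Elastin (Eln), the core of elastic fibres, fell. It was at 35.1, 18.4 and 38.4 CPM in the 3 controls and 5.90, 5.97 and 6.85 CPM in the 3 knockouts, and its log2 fold change was -2.30 ± 0.23 uncorrected and -2.23 ± 0.25 length-corrected (adjusted p = 0.000109 and 8.37e-05). Of 19 matricellular proteins, which sit in the matrix and signal to cells, 5 fell (26.3% against 10.7% of all genes) and 3 rose (15.8% against 9.7%). Those that fell included the CCN family members Ctgf, Cyr61 (Ccn1) and Wisp2 (Ccn5). Cyr61 was at 672, 726 and 677 CPM in the 3 controls and 276, 249.5 and 284 CPM in the 3 knockouts, with the control libraries close together, and changed by -1.36 ± 0.10 uncorrected and -1.14 ± 0.081 length-corrected (adjusted p = 9.08e-06 and 1.16e-06). Wisp2 was at 1537, 2094 and 1218 CPM in controls and 748, 716 and 717 CPM in knockouts (-1.15 and -0.81, adjusted p = 0.00162 and 7e-06). Each of these 3 calls held in all 23 analyses. Spp1, osteopontin, rose from 1181, 2192 and 978 CPM to 2169, 2737 and 3282 CPM, with Smad7-KO library 1 just under control library 2 (0.91 and 1.34, adjusted p = 0.0292 and 8.37e-05). Tnc, tenascin-C, rose from 117, 93.7 and 183 CPM to 248, 235 and 243 CPM (0.88 and 0.49, adjusted p = 0.0164 and 0.000338). With edgeR on the 6 unstimulated libraries 0 of the 19 matricellular genes rose and 3 fell. Without Smad7-KO library 3, 0 rose and 4 fell. The thrombospondins Thbs1 (-0.19 and -0.49) and Thbs2 (0.31 and -0.0093), periostin (Postn, 0.056 and -0.12) and versican (Vcan, 0.93 and 0.33) were not called in both fits.

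Of 28 metalloproteases and their inhibitors, 4 rose and 2 fell, which is 14.3% and 7.14% against 9.7% and 10.7% of all genes, and 2 of the 6 calls, Mmp2 and Mmp8, held in all 23 analyses. Mmp2, gelatinase A, was at 156, 130.3 and 169 CPM in controls and 94, 101 and 92 CPM in knockouts, without overlap (-0.67 ± 0.10 uncorrected and -0.66 ± 0.084 length-corrected, adjusted p = 0.00164 and 0.000101). The stromelysins Mmp3 and Mmp10 and the collagenase Mmp8 rose. Mmp3 was at 316, 575 and 301 CPM in controls and 545, 703 and 711 CPM in knockouts (0.72 and 1.04), Mmp8 at 1.57, 1.89 and 2.57 CPM in controls and 5.60, 7.85 and 5.64 CPM in knockouts (1.66 and 1.76) and Mmp10 at 1.75, 0.971 and 2.07 CPM in controls and 3.52, 6.35 and 7.07 CPM in knockouts (1.80 and 2.05). The inhibitors Timp1 (-0.76 and -0.16, adjusted p = 0.0594 and 0.173) and Timp2 (-0.11 and -0.21, adjusted p = 0.394 and 0.0195) were not called in both fits. Among 17 enzymes that hydroxylate, process or crosslink collagen, 6 fell (35.3% against 10.7% of all genes) and 1 rose (5.88% against 9.7%). Of the 7 calls 1, that of Pcolce, held in all 23 analyses. Pcolce, which enhances the cleavage of procollagen, was at 403, 469.7 and 314 CPM in controls and 205, 209 and 217 CPM in knockouts (-0.91 and -0.81, adjusted p = 0.00168 and 7.75e-05). The hydroxylases Plod2 (-0.56 and -0.66) and P4ha1 (-0.45 and -0.61) and the collagen chaperone Serpinh1 (-0.49 and -0.37) fell, and Plod1 rose (0.56 and 0.41). Lox, lysyl oxidase, was not called (-0.32 and -0.52).

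Of 22 contractile and cytoskeletal genes 9 fell (40.9% against 10.7% of all genes) and 0 rose (against 9.7%). The median was -0.43 uncorrected and -0.26 length-corrected. Acta2, the α-smooth muscle actin that marks myofibroblasts, was at 588, 761 and 491 CPM in the 3 controls and 447, 409.8 and 385 CPM in the 3 knockouts. All Smad7-KO libraries lay below all control libraries, and control library 2 was highest. It changed by -0.57 ± 0.16 uncorrected and -0.26 ± 0.085 length-corrected (adjusted p = 0.03 and 0.0377), and 11 of 23 analyses kept the call. Tagln was at 636, 1022 and 447 CPM in controls and 400.0, 351 and 349 CPM in knockouts (-0.94 and -0.53) and Tpm2 at 129, 263 and 89.2 CPM in controls and 74.9, 69.9 and 68.9 CPM in knockouts (-1.17 and -0.94). Against control library 3 alone the log2 fold changes of these genes were -0.25, -0.29 and -0.33, and 0 of the 9 genes kept their call in all 23 analyses. Among 27 integrins and adhesion receptors 5 rose (18.5% against 9.7% of all genes) and 5 fell (18.5% against 10.7%). Of these 10 calls 3, those of Itga6, Itgam and Itgb4, held in all 23 analyses. With edgeR on the 6 unstimulated libraries 2 members rose and 1 fell. The median of this list changed sign with the correction, from 0.22 to -0.084, as it did for basement membrane genes (0.26 and -0.091) and matricellular proteins (0.056 and -0.12). Those that rose included the leukocyte integrins Itgam and Itgb2 and the laminin receptor subunit Itga6, at 83.9, 65.1 and 115 CPM in controls and 180.0, 183 and 182 CPM in knockouts (1.04 and 0.88). Those that fell included Itgb4 (-2.13 and -2.49), the partner of Itga6 in hemidesmosomes, and Itga3 (-0.78 and -1.0). Itgb1 (0.032 and -0.084), Vcam1 (-0.12 and -0.18) and Cd44 (0.40 and 0.04), a receptor for hyaluronan, were not called in both fits.

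**Figure D3:**
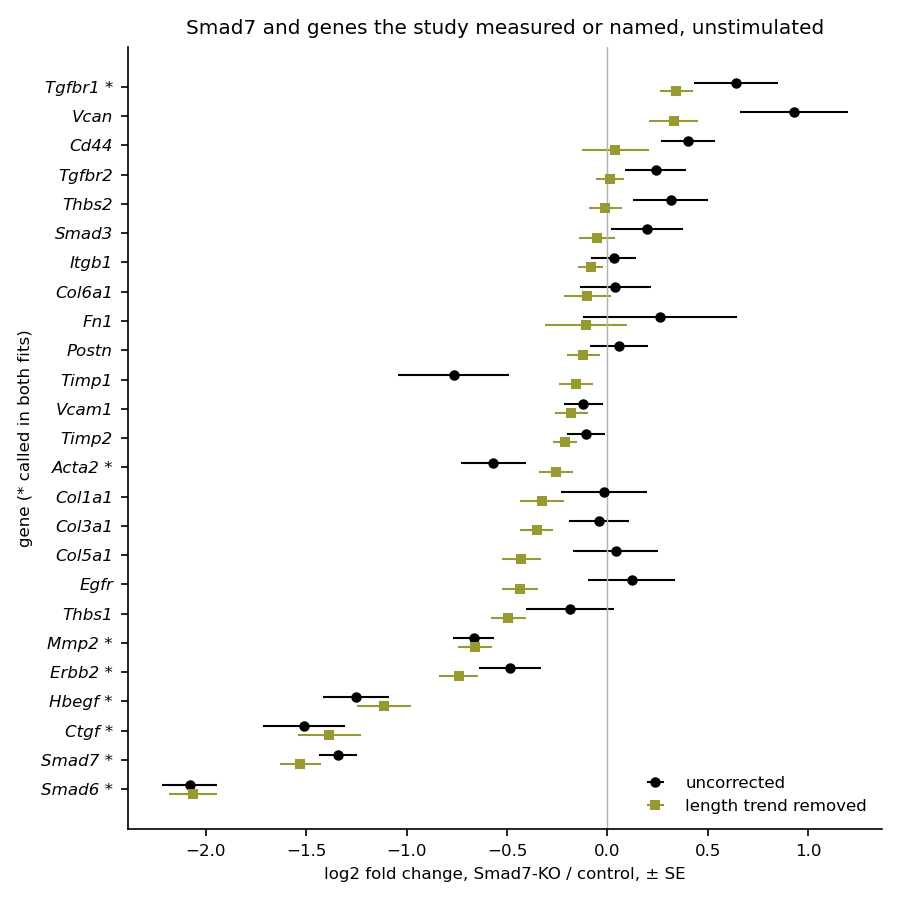
Log2 fold change, Smad7-KO over control, ± SE of Smad7 and of a panel of 24 tested genes, uncorrected (circles) and with the length trend removed (squares). The panel was taken from genes and proteins that the study measured or named. Asterisks mark genes called in both fits, of which Smad6, Smad7, Ctgf, Hbegf, Erbb2, Mmp2 and Acta2 were lower and Tgfbr1 was higher. Squares lie to the left of circles for the long collagen genes and to the right for Timp1 and Acta2.

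The 10 genes that rose most at an average log2 CPM of at least 5 with no overlap between groups were Cd5l, Iqgap2, Snx29, Siglec1, Ddhd1, Hpse, Il6ra, Pik3r5, Cd180 and Kif3a. Cd5l, a secreted protein of macrophages, was at 55.4, 54.7 and 39.6 CPM in the 3 controls and 217, 275 and 275 CPM in the 3 knockouts, with no overlap (2.36 ± 0.15 uncorrected and 2.58 ± 0.11 length-corrected, adjusted p = 6.31e-06 and 1.74e-08). Iqgap2, a scaffold protein of the cytoskeleton, was at 31.9, 19.9 and 55.6 CPM in controls and 152, 145 and 158 CPM in knockouts (2.08 and 1.81, adjusted p = 0.00135 and 2.74e-05). Hpse, the heparanase that cleaves heparan sulfate, was at 85.1, 65.6 and 83.6 CPM in controls and 203, 208 and 195 CPM in knockouts (1.37 and 1.36, adjusted p = 4.21e-05 and 1.49e-06). Kif3a, a kinesin subunit needed for cilia, was at 80.7, 86.5 and 93.7 CPM in controls and 203, 200.2 and 207 CPM in knockouts (1.22 and 1.21, adjusted p = 2.91e-05 and 1.21e-06). These 4 and Pik3r5, a regulatory subunit of phosphoinositide 3-kinase (1.40 and 1.24), kept their calls in all 23 analyses. Siglec1, a sialic acid receptor of macrophages, was at 37.6, 9.77 and 76.3 CPM in controls and 137, 145 and 143 CPM in knockouts, and control library 2 was far below the other control libraries. Snx29 and Il6ra showed the same pattern. Against control library 3 alone the log2 fold changes were 0.89 for Siglec1, 0.79 for Snx29 and 0.56 for Il6ra, and 14, 7 and 9 of 23 analyses kept their calls.

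The 10 genes that fell most were Emcn, Ctla2a, Id1, Clu, Angptl7, Eln, Cd200, Mcam, Smad6 and Adamtsl2, and each kept its call in all 23 analyses. Ctla2a, an inhibitor of cysteine proteases, was at 384, 671 and 239 CPM in controls and 36, 38.5 and 34.3 CPM in knockouts (-3.57 and -3.08, adjusted p = 4.59e-05 and 7.58e-08). Clu, the extracellular chaperone clusterin, was at 93.6, 113 and 71.4 CPM in controls and 12.5, 14 and 13.5 CPM in knockouts (-2.79 and -2.49, adjusted p = 1.62e-06 and 6.67e-10). Angptl7, an angiopoietin-like secreted protein, was at 26.5, 23.1 and 32.6 CPM in controls and 5.15, 5.49 and 4.47 CPM in knockouts (-2.44 and -2.28). Cd200, a surface ligand whose receptor sits on myeloid cells, was at 41.5, 44.7 and 42.5 CPM in controls and 7.53, 9.01 and 9.11 CPM in knockouts (-2.32 and -2.19, adjusted p = 3.72e-07 and 1.74e-08). Mcam, an adhesion molecule of endothelial cells and pericytes, was at 41.4, 32.1 and 42.1 CPM in controls and 8.97, 9.19 and 8.16 CPM in knockouts (-2.14 and -2.12). Adamtsl2, a secreted glycoprotein that binds fibrillin, was at 22.1, 23.3 and 29.3 CPM in controls and 8.77, 8.50 and 8.24 CPM in knockouts (-1.55 and -1.91). In stimulated cells 9 of the 10 fell again, and Id1 was the exception.

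The cells are labelled as cardiac fibroblasts, and fibroblast markers were present in each library. Per length and library total, Col1a1 was at 158.8 to 388.3 FPKM in control and 282.6 to 298.1 FPKM in Smad7-KO libraries, and Dcn, decorin, was at 290.1 to 299.5 and 348.0 to 392.5 FPKM. Macrophage markers were present as well, and at high levels. The 20 on the list summed to 19659 to 30272 CPM in control and 28087 to 30667 CPM in Smad7-KO libraries. Both ranges lay above the summed level of the 12 fibroblast markers given below. These sums cover unlike numbers of genes and are not scaled for gene length, and the share of each cell type was not measured. Lyz2, lysozyme, was at 7368 to 11403 FPKM in control and 10595 to 11932 FPKM in Smad7-KO libraries, and Cd68 was at 340.0 to 560.0 and 708.0 to 717.9 FPKM. Of the 12 markers of lymphocytes and neutrophils, Cd3e, Cd3d, S100a9 and Ly6g had no count in any of the 6 libraries, and the 2 that were tested were not called. Of the 12 fibroblast markers 4 fell (33.3% against 10.7% of all genes) and 2 rose (16.7% against 9.7%). Thy1, a surface glycoprotein, was at 112, 119 and 96.5 CPM in the 3 controls and 34.2, 39.2 and 38.3 CPM in the 3 knockouts, with no overlap (-1.55 ± 0.12 uncorrected and -1.25 ± 0.087 length-corrected, adjusted p = 1.32e-05 and 9.63e-07). Tcf21, a transcription factor of the epicardial fibroblast lineage, was at 129, 178 and 107 CPM in controls and 56, 56.7 and 55.7 CPM in knockouts (-1.30 and -0.83, adjusted p = 0.000524 and 2.56e-06). Vim (-0.75 and -0.56) and Gata4 (-0.57 and -0.62) fell as well. The members that rose were Dcn (0.28 and 0.54) and Lum, the latter at 0.986, 0.800 and 0.844 CPM in controls and 1.59, 1.59 and 1.43 CPM in knockouts, and 6 and 5 of 23 analyses kept these calls. Pdgfra, Ddr2, Col1a1, Col1a2, Tbx20 and Fap were not called. The summed level of the 12 markers was 8476 to 9037 CPM in control and 7027 to 7259 CPM in Smad7-KO libraries.

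Endothelial markers had the lowest median of the 30 lists. Of 18 tested 13 fell and 2 rose, against backgrounds of 10.7% and 9.7%, with a median log2 fold change of -3.04 uncorrected and -2.94 length-corrected. Pecam1 (CD31) was at 52.7, 47.5 and 52.6 CPM in the 3 controls and 2.92, 2.06 and 2.60 CPM in the 3 knockouts. Its log2 fold change was -4.33 ± 0.16 uncorrected and -4.40 ± 0.14 length-corrected (adjusted p = 1.53e-07 and 6.67e-10), and -4.38 against control library 3 alone. Cdh5, VE-cadherin, was at 37.3, 23.1 and 42.4 CPM in controls and 3.27, 2.53 and 3.38 CPM in knockouts (-3.48 and -3.61, adjusted p = 9.08e-06 and 7.58e-08). Emcn, endomucin (chromosome 3, 137341067 to 137432185, plus strand), was at 152, 189.8 and 114 CPM in controls and 5.25, 4.34 and 4.42 CPM in knockouts (-5.02 and -5.12, adjusted p = 3.84e-07 and 3.61e-07), the largest fall of the 10 genes listed above. Esam, an adhesion molecule, was at 12.7, 17.2 and 11.3 CPM in controls and 0.595, 0.515 and 0.304 CPM in knockouts, and Erg, a transcription factor of endothelial cells, was at 7.08, 4.63 and 6.45 CPM in controls and 0.644, 0.30 and 0.174 CPM in knockouts. In all these genes every Smad7-KO library was far below every control library, and 12 of the 13 falls held in all 23 analyses. The members that rose were Cd93 (1.54 and 1.21), which macrophages also express, and Vwf (1.03 and 0.50). Tek, Kdr and Ptprb were not called, and Cldn5 and Sox17 did not pass the filter on low counts. Eng, Flt1 and Tie1 are also counted in the receptor lists above. The summed level of the 18 tested markers was 755.3 to 888.2 CPM in control and 608.8 to 662.6 CPM in Smad7-KO libraries. In stimulated cells 12 fell and 1 rose.

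Macrophage markers that were called were higher. Of 20 tested 10 rose (50% against 9.7% of all genes) and 0 fell (against 10.7%). The median log2 fold change was 0.38 uncorrected and 0.59 length-corrected. Itgam (CD11b) was at 263, 158 and 336 CPM in the 3 controls and 619.5, 666 and 659 CPM in the 3 knockouts, without overlap, and changed by 1.36 ± 0.23 uncorrected and 1.15 ± 0.14 length-corrected (adjusted p = 0.00282 and 7.95e-05). Csf1r, the receptor for macrophage colony-stimulating factor, was at 995, 706 and 1054 CPM in controls and 1372, 1382 and 1376 CPM in knockouts (0.58 and 0.36), and Mrc1, the mannose receptor, was at 762, 659.9 and 1012 CPM in controls and 1376, 1398 and 1296 CPM in knockouts (0.74 and 0.46, adjusted p = 0.0103 and 0.000974). Cd68 was at 674, 455 and 587 CPM in controls and 862, 874 and 876 CPM in knockouts (0.61 and 0.96, adjusted p = 0.00943 and 0.0153). Lyz2, Tyrobp, Fcer1g and the complement genes C1qa, C1qb and C1qc passed, as higher, only in the length-corrected fit, with uncorrected log2 fold changes of -0.28 to 0.21 and length-corrected ones of 0.28 to 0.68. The summed level of the 20 markers was 19659 to 30272 CPM in control and 28087 to 30667 CPM in Smad7-KO libraries, ranges that overlapped. Of the 10 rises 1, Itgam, held in all 23 analyses. The length-corrected fit on its own called 17 members higher and 1 lower. With DESeq2 on all 12 libraries 10 members were higher and 1 lower in both fits. Without control library 2 these numbers were 11 and 1. The part of this list in the rises of Cd5l, Siglec1, Cd180, Csf1r, Mertk, Itgam and Itgb2 was not tested.

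Markers of other cell types of the heart were lower where called. The share lower, 10.7% over all genes, was 42.9% for smooth muscle and pericyte, 62.5% for mesothelial and epicardial and 14.3% for cardiomyocyte markers. Of 7 smooth muscle and pericyte markers tested 3 fell, Mcam, Cspg4 (-1.79 and -2.26) and Des (-1.33 and -1.32), at a summed level of 159.9 to 298.6 CPM in control and 198.0 to 204.6 CPM in Smad7-KO libraries, while Rgs5, Notch3, Pdgfrb and Myh11 were not called. Of 8 mesothelial and epicardial markers 5 fell, with Upk1b at 99.1, 99.1 and 85.8 CPM in controls and 45, 40.05 and 38.2 CPM in knockouts (-1.20 and -0.92) and Krt18 at 3.81, 4.69 and 2.62 CPM in controls and 0.198, 0.172 and 0.0434 CPM in knockouts, and their summed level was 314.9 to 354.0 CPM in control and 213.0 to 253.2 CPM in Smad7-KO libraries. Of 7 cardiomyocyte markers 1 fell, Tnnt2, at 37.1, 69.99 and 30.2 CPM in controls and 15.7, 16.7 and 20.6 CPM in knockouts, and Nppa had no count in any of the 6 libraries. The summed level of the 7 tested cardiomyocyte markers was 36.4 to 80.1 CPM in control and 19.97 to 26.9 CPM in Smad7-KO libraries, while their median log2 fold change was 1.09 uncorrected and 1.55 length-corrected. That median depended on members at low counts. With edgeR on the 6 unstimulated libraries 4 members passed the filter, with a median of -1.18 uncorrected and -0.99 length-corrected.

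**Figure D4:**
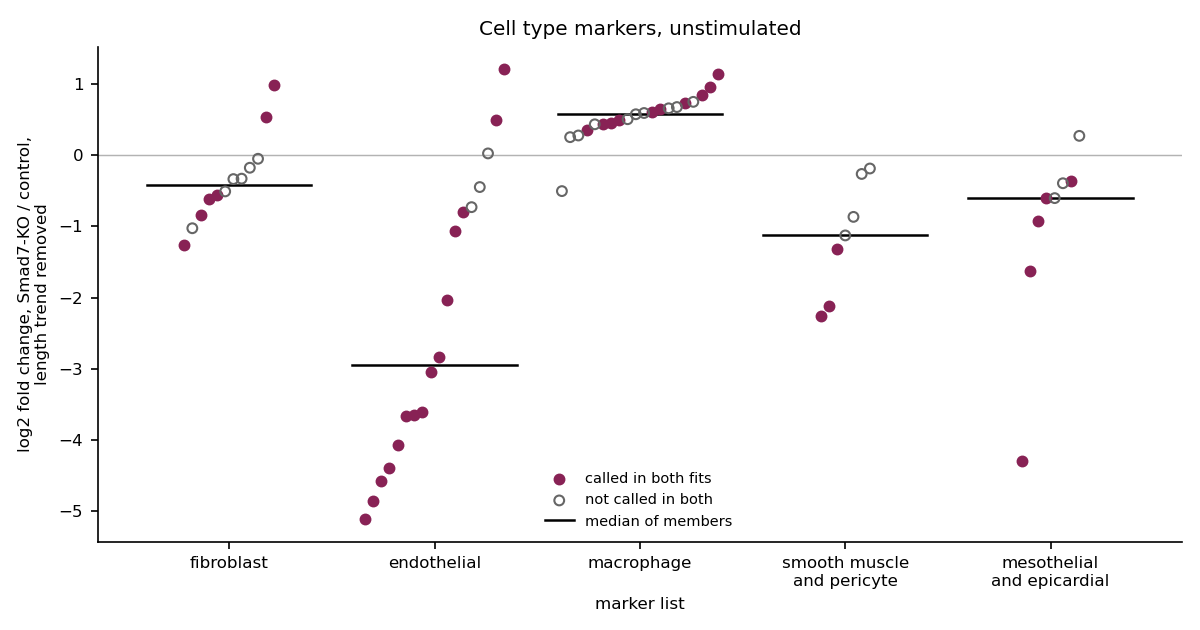
Length-corrected log2 fold change, Smad7-KO over control, of each tested member of 5 marker lists, sorted within a list. Filled points were called in both fits, open points were not, and bars are list medians. The endothelial median is -2.94 and the macrophage median is 0.59.

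Both Xist, the RNA of the inactive X chromosome of female cells, and genes of the Y chromosome were detected in each library. Xist was at 82.9, 77.9 and 184 CPM in the 3 controls and 53.7, 47.3 and 42.2 CPM in the 3 knockouts and fell (-1.27 and -1.97, adjusted p = 0.0188 and 1.82e-07). Of the Y-linked genes, Uty (0.93 and 0.67), Kdm5d (1.06 and 0.62) and Ddx3y (0.52 and 0.30) rose, and Eif2s3y (0.086 and 0.076) was not called. Of the 5 genes tested, 3 rose (60% against 9.7% of all genes) and 1 fell (20% against 10.7%). Of these 4 calls 0 held in all 23 analyses, and in stimulated cells 1 member rose and 1 fell. The part of these genes in the other differences was not tested.

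Among the remaining lists, 12 of 27 genes of the unfolded protein response and targets of ATF4, a transcription factor of amino acid stress, fell and 0 rose, with a median of -0.45 uncorrected and -0.35 length-corrected. Phgdh, the first enzyme of serine synthesis, was at 107, 163 and 80.1 CPM in controls and 56.1, 60.8 and 53.6 CPM in knockouts (-1.04 and -0.74, adjusted p = 0.00868 and 0.00137). Atf5 was at 419, 439 and 331 CPM in controls and 232, 217 and 212 CPM in knockouts (-0.85 and -0.56, adjusted p = 0.00139 and 0.000149), and Pycr1, an enzyme of proline synthesis, was at 31.1, 27.1 and 31.9 CPM in controls and 19.4, 14.8 and 15.6 CPM in knockouts (-0.86 and -0.83, adjusted p = 0.000955 and 0.000157). The chaperone Hspa5 (-0.49 and -0.40), Atf4 (-0.76 and -0.41) and Asns, asparagine synthetase (-0.71 and -0.47), fell too. The share lower was 44.4% against 10.7% of all genes, and 2 of the 12 calls, Atf5 and Pycr1, held in all 23 analyses. The number lower was 2 with edgeR on the 6 unstimulated libraries, 3 against control library 3 alone (median -0.21 in both fits), 8 without control library 1 and 4, 6 and 4 without Smad7-KO library 1, 2 or 3. In stimulated cells 10 members fell.

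Of 28 cell cycle genes 5 rose (17.9% against 9.7% of all genes) and 0 fell (median 0.10 and 0.24), and 3 rose without Smad7-KO library 1, 2 or 3. Top2a, topoisomerase II, was at 25.1, 22.5 and 27.1 CPM in controls and 47.6, 40.05 and 44.8 CPM in knockouts (0.82 and 0.53, adjusted p = 0.000866 and 0.00291) and alone of the 5 held in all 23 analyses. Mki67 was at 16.5, 20.4 and 22.7 CPM in controls and 51.8, 41.8 and 49.1 CPM in knockouts (1.26 and 0.62, adjusted p = 0.000369 and 0.046), and 7 of 23 analyses kept its call. Ccnb1, Cdk1, Plk1 and Pcna were not called. Of 30 interferon-stimulated genes 4 rose (13.3% against 9.7% of all genes) and 0 fell, led by Parp14, at 81.2, 64.1 and 109 CPM in controls and 174, 183 and 192 CPM in knockouts (1.11 and 0.67, adjusted p = 0.00274 and 0.000546), and followed by Stat2, Ddx58 and Ifih1. Parp14 alone of these 4 held in all 23 analyses, and 1 gene of the list was called without Smad7-KO library 2 or 3. Of 22 chemokines, cytokines and complement genes, with medians of -0.29 and 0.050, 5 fell, among them Cxcl12 (-0.35 and -0.70), and Ccl5, at 1.52, 0.800 and 0.548 CPM in controls and 1.78, 2.06 and 2.43 CPM in knockouts, rose. The shares were 22.7% lower and 4.55% higher, against 10.7% and 9.7% of all genes, and 0 of the 6 calls held in all 23 analyses. Of 20 p53 targets 3 fell, Perp (-2.17 and -1.87), Phlda3 (-1.05 and -0.60) and Btg2 (-0.38 and -0.32), and Sesn1 rose (0.47 and 0.45). These shares, 15% and 5%, were near the 10.7% and 9.7% of all genes, and of the 4 genes Perp held in all 23 analyses. In cholesterol and fatty acid synthesis 3 of 26 genes rose (Dhcr7, Hmgcs1 and Acly, 11.5%). In glycolysis and hypoxia 2 of 24 rose (Pfkfb3 and Vegfa, 8.33%). These shares were near the 9.7% of all genes, and 0 of these calls held in all 23 analyses. In both lists 0 members fell, against 10.7% of all genes.

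Calls of ribosomal and respiratory chain genes, most of them short, differed between the fits. Without correction 33 of 78 cytosolic ribosomal protein genes were called lower, beside 13.7% of all genes in that fit, with a median log2 fold change of -0.94. With the trend removed 17 were called lower (21.8% of the list, beside 15.6% of all genes in that fit). Their median was -0.32 over the list, and 0 of these 17 kept their call in all 23 analyses. Their summed level was 28384 to 85134 CPM among the control libraries and 27651 to 29679 CPM among the Smad7-KO libraries. Rps20 was at 566, 1376 and 309.9 CPM in the 3 controls and 296, 316 and 312 CPM in the 3 knockouts, so that control library 3 matched the Smad7-KO libraries, and its log2 fold change against control library 3 alone was -0.01. Of 59 respiratory chain genes 12 were lower uncorrected and 7 in both fits (11.9%, near the 10.7% of all genes), and the median moved from -0.86 to -0.22. In stimulated cells 0 members of either list were called in both fits.

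**Figure D5:**
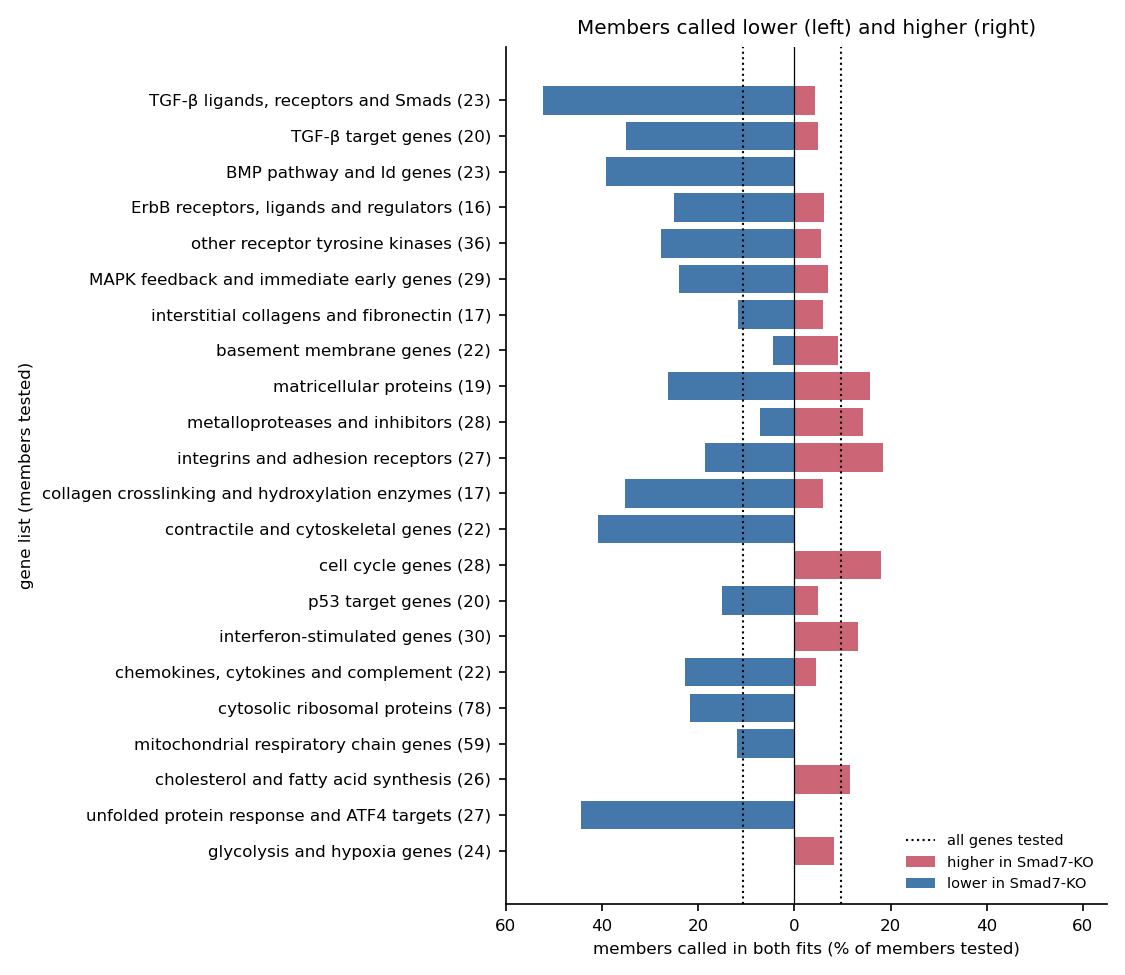
Share of the tested members of each pathway and gene family list that was called lower (left) or higher (right) in Smad7-KO cells in both fits, in percent, with the number tested in parentheses. Dotted lines mark the shares over all genes tested, 10.7% lower and 9.7% higher. The TGF-β list (52.2%) and the unfolded protein response list (44.4%) have the largest shares lower of the lists drawn, which leave out the cell type markers and the sex-linked genes.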

How the data were processed

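Libraries were poly(A)-selected, made with an NEBNext Ultra kit and sequenced as 100-base pairs. The authors deposited raw read counts per gene, made per the submitters' processing notes with TopHat2 2.0 and HTSeq 0.6.1 on mm10 (GRCm38.p6), and a table of FPKM values, which equal each count over the gene's length and the library's total. The notes also name CASAVA and Cufflinks 2.1.1. The strand setting of the counting is not given in the sources used here, so overlapping antisense genes cannot be separated.

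Counts of all 12 libraries (4 groups of 3) were fitted with the robust quasi-likelihood test of edgeR 4.0.16 in R 4.3.3, after filterByExpr (minimum count 10) and TMM scaling, with Benjamini-Hochberg adjustment at 0.05. A second fit removed each library's loess trend (span 0.3) on log10 gene length as an offset. A call required both fits. Alternatives used DESeq2 1.42.0, limma 3.58.1, other normalization, filtering and library sets, and scripts were tested on simulated data. FPKM served to compare levels between genes and in 1 alternative, as log2(FPKM + 1).

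Named genes were Smad7, genes that the study measured or named, the 10 protein-coding genes with the largest length-corrected rise and the 10 with the largest fall among those called, without overlap and at a mean level of 5 log2 CPM or more, and up to 3 members per list and direction. Other list members named in the text were picked after their values were seen. Members and lists were chosen with earlier results of these data known. Unless an analysis is named, CPM were not corrected for gene length.

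Control and Smad7-KO libraries with the same number did not deviate together (correlations of deviations 0.021, 0.083 and -0.045), so they were not treated as pairs. Depth was 19056916 to 23121796 counts per library. With 3 libraries against 3, an exact test of a single gene cannot give a two-sided p under 0.1, so p values rest on the model across genes.

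Some list members are counted in their lists but are not reported here by name.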

Additional observations from a re-analysis of the deposited data

Results flagged for a closer look

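For Mcam, an adhesion molecule of endothelial cells and pericytes, the effect of the deletion differed between cells with and without TGF-β1. Its log2 fold change, Smad7-KO over control, was -2.14 uncorrected and -2.12 length-corrected without TGF-β1, and -0.58 and -0.54 with it. The difference between these effects was 1.56 uncorrected (edgeR interaction, adjusted p = 0.0115) and 1.58 length-corrected (adjusted p = 0.00074). Of 15150 genes tested for this difference, 3 passed in both fits. The other two, F11r, a junctional adhesion molecule, and Gcnt2, a glycosyltransferase, are named after their values were seen. The log2 fold change of F11r was -1.35 uncorrected and -1.25 length-corrected without TGF-β1, and -0.12 and -0.036 with it, differences of 1.23 and 1.22 (adjusted p = 0.0317 and 0.00713). That of Gcnt2 was -0.45 uncorrected and -0.64 length-corrected without TGF-β1, and 0.65 and 0.56 with it, a difference of 1.10 uncorrected (adjusted p = 0.0439, and 0.00713 length-corrected).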

How the results depend on the processing

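No gene called in both fits was called in the opposite direction under any of the 23 alternatives, which kept 20.2% to 99.5% of the 3091 calls. A joint correction for gene length and for GC content was chosen after seeing the data and gave 3047 calls. The counts past the threshold, uncorrected and in both fits (3907 and 3091), became 2578 and 2050 with DESeq2 on the 6 unstimulated libraries, 660 and 628 with edgeR on the same 6, 1529 and 1378 with limma voom and group weights, and 1711 and 1701 with control libraries 1 and 2 left out. Leaving out 1 library at a time gave 1535 to 7979 and 1366 to 4943. The cause of these differences was not tested. Without the filter on low counts the counts were 2801 and 2470, and with a replicate block, which joins libraries of the same number, 3222 and 2678 (4180 with the length trend removed). The shared numbers do not pair the libraries.

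The uncorrected log2 fold changes of 13 genes of the panel drawn with Smad7, none called in both fits, changed sign. With the length trend removed, the values were -0.43 for Col5a1, -0.099 for Col6a1, -0.43 for Egfr, -0.11 for Fn1, -0.084 for Itgb1, -0.12 for Postn, -0.052 for Smad3 and -0.0093 for Thbs2. With the replicate block as well they were -0.43 for Col5a1, -0.085 for Col6a1, -0.43 for Egfr, -0.084 for Fn1, -0.084 for Itgb1, -0.12 for Postn, -0.048 for Smad3 and -0.0063 for Thbs2. With length and GC content removed they were -0.36 for Col5a1, -0.029 for Col6a1, -0.44 for Egfr, -0.088 for Fn1, -0.11 for Itgb1, -0.18 for Postn, -0.030 for Smad3 and -0.0021 for Thbs2. Without control libraries 1 and 2 they were -0.36 for Col5a1, -0.24 for Col6a1, -0.26 for Egfr, -0.48 for Fn1, -0.13 for Itgb1, -0.22 for Postn, -0.14 for Smad3, -0.11 for Thbs2, -0.032 for Tgfbr2 and 0.0061 for Timp1. Col1a1 was 0.080 with limma on log2(FPKM + 1), 0.062 with voom and 0.020 with the replicate block, and Col3a1 was 0.0043 with limma on log2(FPKM + 1). With 1 library left out at a time, values ran from -0.28 to 0.21 for Col1a1, -0.20 to 0.094 for Col3a1, -0.21 to 0.30 for Col5a1, -0.18 to 0.21 for Col6a1, -0.10 to 0.36 for Egfr, -0.11 to 0.85 for Fn1, -0.063 to 0.12 for Itgb1, -0.092 to 0.22 for Postn, -0.0016 to 0.41 for Smad3 and -0.39 to 0.13 for Thbs1.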
